A study of Mus musculus with 4 samples.

Results

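Gata6, Foxa2, Sox17 and Hnf4a are transcription factors of the primitive endoderm, and each was read by 1 probe that is annotated to that gene alone. These 4 probes were taken from 9480 on the array, of which 6566 carried 1 gene and together covered 6025 genes. The study set RNA of mutant mouse embryonic stem (ES) cells, which are pluripotent and derive from the early embryo, against RNA of wild-type ES cells on cDNA microarrays with 2 colours. One mutant was homozygous for the fosBd/d allele, from which only the short protein ΔFosB is made, and the other was fosB-null. FosB is a subunit of AP-1, a transcription factor that serum induces. All cells grew without feeder cells, and by the series title they were starved of serum for 72 h and then given serum for 4 h. Each mutant had a dye swap of 2 arrays, and the labels do not give the number of cell clones or whether the RNA of a pair of arrays came from separate cultures. No 1-gene probe for Fosb itself was found, so the genotypes were not checked on the targeted gene.

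The primitive endoderm is the layer of the early embryo that forms beside the pluripotent epiblast and gives rise to the visceral and parietal yolk sac endoderm. GATA6, a zinc-finger protein, is needed for this fate, and forcing its expression turns ES cells towards endoderm. SOX17 is a high-mobility-group factor of primitive and definitive endoderm, FOXA2 is a forkhead factor that can bind closed chromatin, and HNF4A is a nuclear receptor that controls genes of secreted proteins in visceral endoderm and liver.

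The values are log2 ratios between mutant and wild-type RNA, so they show differences and not levels, and markers of ES cells could not be read as present or absent. Their direction is taken as likely for fosBd/d and as not settled for fosB-null, though the same kinds of label bear on both. By the dye names, Cy5 over Cy3, and the minus signs left on zeros, fosBd/d ratios above 0 stand for more RNA in that mutant and fosB-null ratios above 0 for less. Between the mutants, arrays with the mutant in the same dye correlated negatively across probes. Their r was -0.46 for replicate 1 and -0.37 for replicate 2. Between the mutants, arrays with the dyes exchanged correlated positively, at 0.33 and 0.34. Within each swap r was negative as well, at -0.12 (fosBd/d) and -0.32 (fosB-null), so replicates did not agree across probes. With the minus sign removed from the 2 arrays whose zeros carry one, every pair correlated positively, with r from 0.12 to 0.46. The source of this shared pattern was not tested. As their direction is not settled, the fosB-null ratios are given as deposited. Each comparison of the mutants is given with the fosB-null sign turned too. The titles pair Cy3 with red and Cy5 with green, against the usual colours, and by those words fosBd/d would be the mutant to turn. The SD of the log2 ratio over all probes was 0.824 and 0.652 on the fosBd/d arrays. It was 0.436 and 0.542 on the fosB-null arrays.

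RefSeq promoter windows of build GRCm38.p6 were used to see whether the DNA near the start sites of these factors holds letters that the same kinds of factor bind. Each window runs from 250 bases before a start to 50 after it. The table matched 2 of the 4 genes, Foxa2 with 3 windows and Hnf4a with 2. Gata6 and Sox17 were not matched. The windows below are the ones that hold the GATA motif AGATAA, which is in capitals.
Foxa2, chr2:148045415-148045714, minus strand: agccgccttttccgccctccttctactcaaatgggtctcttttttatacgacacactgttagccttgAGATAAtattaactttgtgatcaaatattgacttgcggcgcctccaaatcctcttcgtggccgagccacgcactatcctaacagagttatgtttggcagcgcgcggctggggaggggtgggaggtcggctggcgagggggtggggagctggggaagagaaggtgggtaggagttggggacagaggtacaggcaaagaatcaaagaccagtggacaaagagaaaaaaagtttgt
Hnf4a, chr2:163506607-163506906, plus strand: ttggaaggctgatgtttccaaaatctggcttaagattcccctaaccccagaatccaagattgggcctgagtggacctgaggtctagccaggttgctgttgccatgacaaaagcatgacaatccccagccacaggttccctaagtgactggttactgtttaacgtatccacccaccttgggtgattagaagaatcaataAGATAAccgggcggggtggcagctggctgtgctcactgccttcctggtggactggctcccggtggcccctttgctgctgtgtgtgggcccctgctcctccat
The match begins 183 bases before the start in the Foxa2 window and 52 bases before it in the Hnf4a window. AGATAA or its reverse complement was in 2 of the 5 windows and in 11.2% of all 32851 promoter windows. The AP-1 motif TGANTCA, the forkhead motif TGTTTAC, the SOX motif ACAATGG and the HNF4 motif CAAAGTCCA, each searched on both strands, were in 0 of the 5 windows. Their shares among all windows were 7.81%, 3.65%, 3.66% and 0.475%. These are matches of letters in short windows, and binding was not measured.

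In fosBd/d cells, Gata6 and Foxa2 had ratios of more than 2-fold on both arrays, on the side that is likely higher in the mutant. Hnf4a was positive on both arrays but far apart in size, and Sox17 was strongly positive on one array and strongly negative on the other. In fosB-null cells, 0 of the 4 reached 2-fold on either array, where 8.25% of all probes did. With 4 probes, a count of 0 is close to that share. The fosB-null arrays also had the smaller SDs over all probes.

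Gata6 had a log2 ratio of 1.95 on fosBd/d replicate 1 and 1.55 on replicate 2, which are 3.85-fold and 2.92-fold. The mean was 1.75 ± 0.28 (SD, n = 2 arrays), or 3.36-fold, and it ranked 36 from the top of the 9480 probes. On the fosB-null arrays Gata6 stood at -0.27 and 0.64, on opposite sides of 0, with a mean of 0.19 ± 0.64. Both fosBd/d values thus lay above both fosB-null values, whichever sign the latter take.

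Foxa2 gave the closest pair of fosBd/d values among the members, 1.65 on replicate 1 and 1.81 on replicate 2. Its mean of 1.73 ± 0.12 (SD, n = 2 arrays) is 3.32-fold and ranked 40. The gap between its arrays, 0.17, was smaller than the median gap over all probes, 0.46. On the fosB-null arrays Foxa2 stood at 0.17 and -0.37, with a mean of -0.10 ± 0.38, and neither sign of these values reached the fosBd/d range.

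Hnf4a stood at 1.55 on fosBd/d replicate 1, close to Foxa2, but at 0.33 on replicate 2, which is 2.93-fold against 1.26-fold. Its mean was 0.94 ± 0.86 (SD, n = 2 arrays), rank 249, and the size of the ratio therefore rests on replicate 1. The fosB-null arrays gave -0.26 and -0.04. As deposited, both fosBd/d values were above both fosB-null values. With the fosB-null sign turned, 0.33 still lay above 0.26, by a margin smaller than the spread between the fosBd/d arrays.

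Sox17 had the widest disagreement. On fosBd/d replicate 1 its ratio was 2.83, or 7.11-fold, which ranked 30 from the top, and on replicate 2 it was -1.95, or 3.87-fold the other way, which ranked 69 from the bottom. The gap of 4.78 was met or passed by 46 of the 9480 probes (0.485%). Its mean of 0.44 ± 3.38 (SD, n = 2 arrays) gives no direction. The fosB-null arrays lay close together, at -0.32 and -0.17, with a mean of -0.24 ± 0.11.

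**Figure D1:**
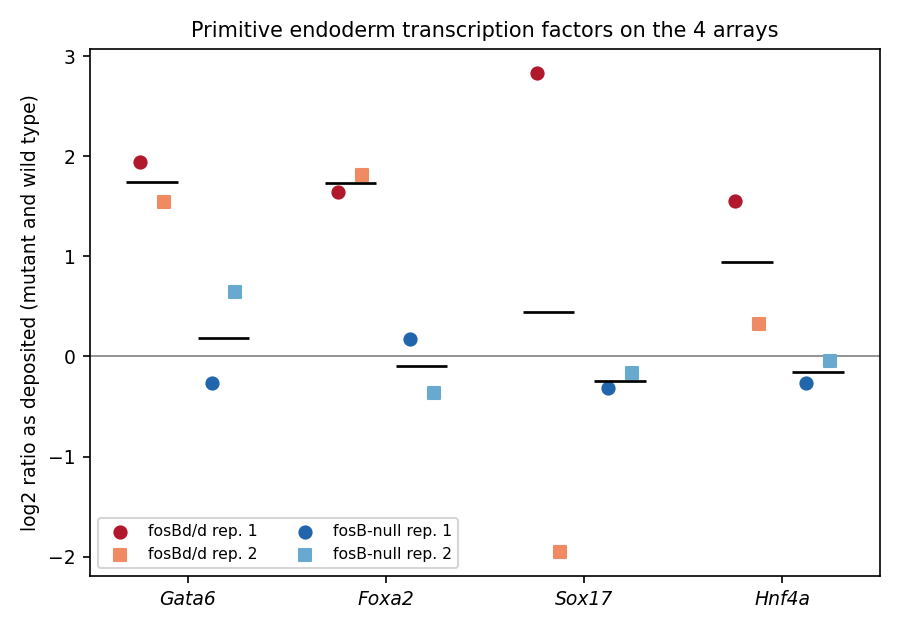
Log2 ratio as deposited (vertical axis) of each factor on each of the 4 arrays, with points for single arrays and black lines for the mean of 2 arrays. Both fosBd/d points of Gata6 and Foxa2 lie between 1.55 and 1.95, while the fosBd/d points of Sox17 lie at 2.83 and -1.95.

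The same values can be read in the apparent scanner direction, with the minus sign of the 2 turned arrays removed. There, Gata6 stood at -1.95 and 1.55 on fosBd/d replicates 1 and 2 and Foxa2 at -1.65 and 1.81, so the sign followed the exchange of the dyes. Sox17 stood at -2.83 and -1.95, so its sign did not follow the exchange. Its mean in that direction was -2.39 over the fosBd/d arrays, and the fosB-null arrays gave -0.32 and 0.17. The fitted dye term of Sox17 was -1.23 ± 0.76 (limma SE), against sizes of 0.18 to 0.36 for the other factors. Its adjusted p in limma was 0.404 for Sox17, 0.245 for Gata6, 0.342 for Foxa2 and 0.338 for Hnf4a. By these p-values the dye term did not set Sox17 apart. The part of the dyes in the Sox17 values was not tested further. Ratios of at least 2-fold with opposite signs on the fosBd/d arrays were found for 273 of the 9480 probes (2.88%).

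**Figure D2:**
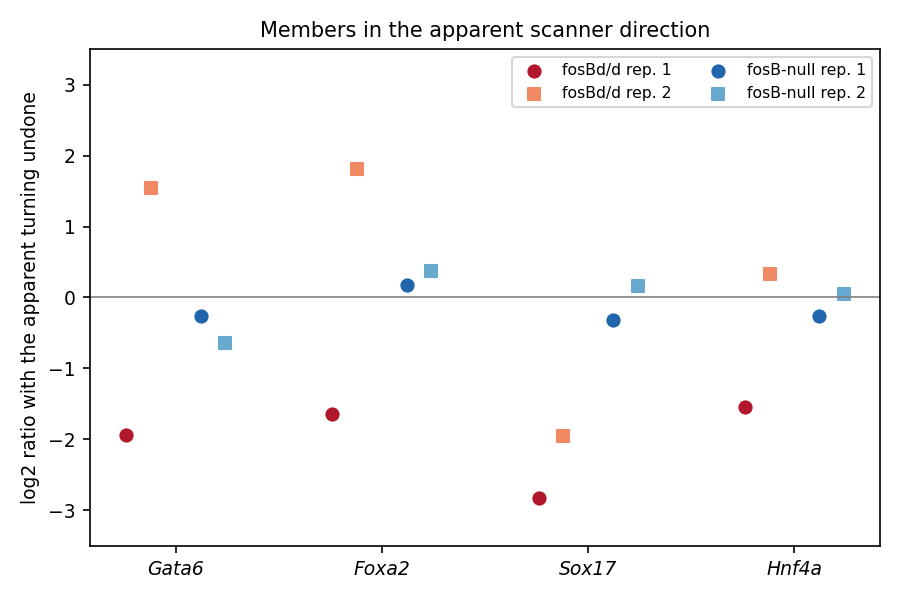
Log2 ratio of each factor with the apparent turning of 2 arrays undone (vertical axis), 1 point per array. Gata6, Foxa2 and Hnf4a have fosBd/d points on both sides of 0, and Sox17 has both at the negative end, -2.83 and -1.95.

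With limma on all 4 arrays and all probes, 0 of the 4 factors passed an adjusted p of 0.05 in fosBd/d, as did 0% of the 9480 probes. The adjusted p was 0.297 for Gata6 and Foxa2, 0.314 for Hnf4a and 0.828 for Sox17, and 0.297 was the smallest value of the whole table, shared by 796 probes. The unadjusted p was 0.00397 for Gata6 (1.75 ± 0.15, limma SE) and 0.00268 for Foxa2 (1.73 ± 0.12). It was 0.05005 for Hnf4a (0.94 ± 0.25) and 0.717 for Sox17 (0.44 ± 1.08). Thus 2 of the 4 were under an unadjusted 0.05, as were 15.9% of all probes. Positive values on both arrays were found for 3 of the 4, beside 21.7% of all probes, negative values on both for 0 of the 4, beside 22.0%, and positive ratios of at least 2-fold on both for 2 of the 4, beside 1.24%. The factors were chosen with these values known, so the counts describe them and test nothing. The p-values rest on what the shared dye term leaves of the differences within the 2 swaps, drawn towards the spread of all probes. Those of fosBd/d thus also depend on the fosB-null arrays, and the spread may be technical.

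**Figure D3:**
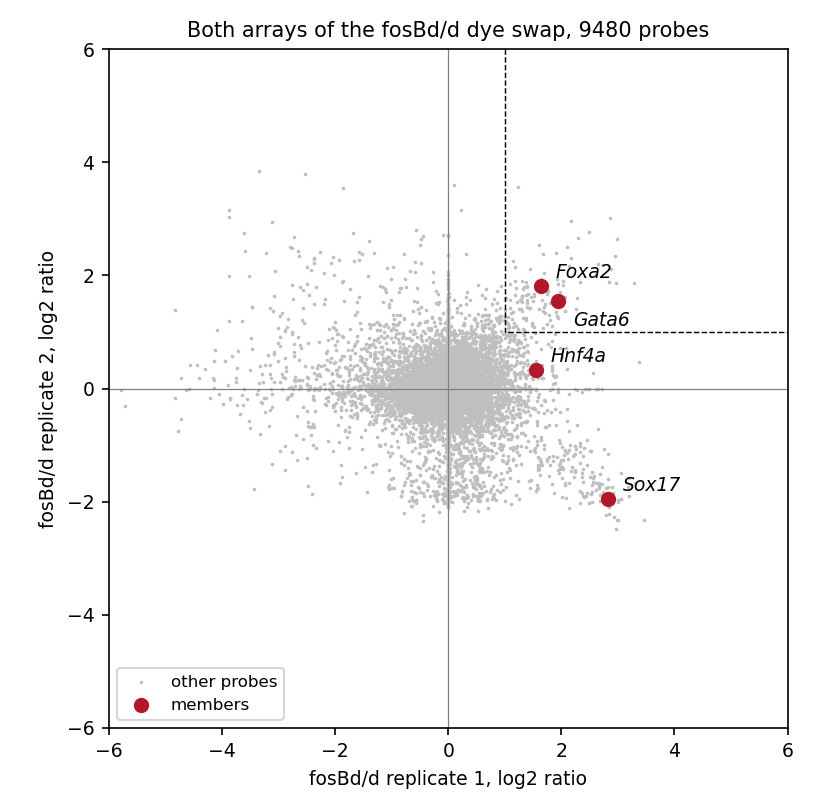
Log2 ratio on fosBd/d replicate 1 (horizontal axis) against replicate 2 (vertical axis) for 9480 probes in grey and the 4 factors in red, with dashed lines at 2-fold. Foxa2 and Gata6 lie inside the corner that is at least 2-fold positive on both arrays, Hnf4a lies below it, and Sox17 lies in the lower right.

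In fosB-null, adjusted p-values in the same limma fit were 0.743 for Gata6, 0.843 for Foxa2, 0.892 for Hnf4a and 0.991 for Sox17. No factor had an unadjusted p under 0.05 (0 of 4), against 6.10% of all probes. Hnf4a and Sox17 were negative on both arrays, 2 of 4 beside 19.0% of probes, and 0 of 4 were positive on both, beside 18.6%. The 95% intervals of the fit ran from -0.37 to 0.75 for Gata6 and from -0.57 to 0.37 for Foxa2. These intervals leave out the ratios of both genes in fosBd/d. The interval of Sox17, from -4.29 to 3.81, leaves out almost nothing.

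Between the mutants, fosBd/d minus fosB-null as deposited was 1.83 ± 0.18 (limma SE) for Foxa2 and 1.56 ± 0.21 for Gata6. It was 1.09 ± 0.35 for Hnf4a and 0.68 ± 1.52 for Sox17. With the fosB-null sign turned the differences were 1.63 for Foxa2, 1.93 for Gata6, 0.79 for Hnf4a and 0.20 for Sox17. Adjusted p-values in limma were 0.357 for Foxa2 and Gata6, 0.369 for Hnf4a and 0.821 for Sox17, and 0.524 for Foxa2 and Gata6 with the sign turned. Foxa2 and Gata6 were under an unadjusted p of 0.05 both ways, 2 of 4, beside 13.9% of all probes as deposited and 9.12% with the sign turned. Both mutants were set against wild-type RNA, and the labels do not say whether it was the same extract.

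The 4 profiles were not alike. Over the 4 arrays, the root mean square difference in log2 ratio was 0.586 between Gata6 and Foxa2, the closest pair, and 1.99 between Foxa2 and Sox17, the most distant. By the same measure the nearest genes to Gata6 were Clic1 (0.234), Mpzl2 (0.237) and the laminin chain Lamc1 (0.259), which lies in the basement membrane that endoderm secretes. Nearest to Foxa2 were Lhfpl2 (0.155), the collagen prolyl hydroxylase P4ha1 (0.166) and Ypel2 (0.206). Nearest to Hnf4a were Ppp1r16b (0.121), Homer2 (0.141) and AI425999 (0.159). The nearest to Sox17 were further off, namely Fcna (0.554), Myo5b (0.643) and Ptprd (0.707), and their fosBd/d arrays had opposite signs too. Mpzl2, Ypel2 and AI425999 each had 2 probes, and the nearer one is meant.

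Other transcription factors of the endoderm network were given by 13 measured genes of 29 listed. In fosBd/d, 6 of the 13 were positive on both arrays and 1 was negative on both, where 25.0% and 24.2% of all genes were, and the median of their means was 0.24 against -0.02 for all genes. Snai1, a repressor that acts in epithelial-mesenchymal transition and is made in parietal endoderm, stood at 1.74 and 1.68, beside -0.46 and -0.36 in fosB-null. It was the one factor of this list at 2-fold on both fosBd/d arrays, 1 of 13, where 1.53% of all genes were. Tcf7l2, which carries Wnt signals to DNA, stood at 0.97 and 0.96, and at 0.28 and 1.04 in fosB-null. Klf6 stood at 0.80 and 0.77 over 2 probes, and its probes had opposite signs on each fosB-null array, -0.45 and 0.66 for one and 0.30 and -0.34 for the other.

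Nr2f2 (COUP-TFII), an orphan nuclear receptor, stood at 0.57 and 0.67 in fosBd/d and at -0.41 and -0.46 in fosB-null. Eomes, a T-box factor of visceral endoderm, trophoblast and mesendoderm, was positive on all 4 arrays, with means of 0.42 ± 0.12 in fosBd/d and 0.47 ± 0.23 in fosB-null. Foxa3, the FOXA paralog that was measured, had 0.06 and 0.41 in fosBd/d, so it did not share the size of the Foxa2 ratio. Nr5a2 was the member of the list that was negative on both fosBd/d arrays, at -0.94 and -0.71, and it is a receptor of both pluripotent cells and endoderm. The other 6, Cebpa, Klf5, Lhx1, Nr2f1, Zfpm2 and Sox18, lay between 0.24 and -0.55 with signs that differed or a value of 0 on 1 of the arrays. Of the 13, 0 passed an adjusted p of 0.05 in limma in either mutant, and 5 had a probe with an unadjusted p under 0.05 in fosBd/d and 2 in fosB-null, beside 18.4% and 6.66% of all genes.

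**Figure D4:**
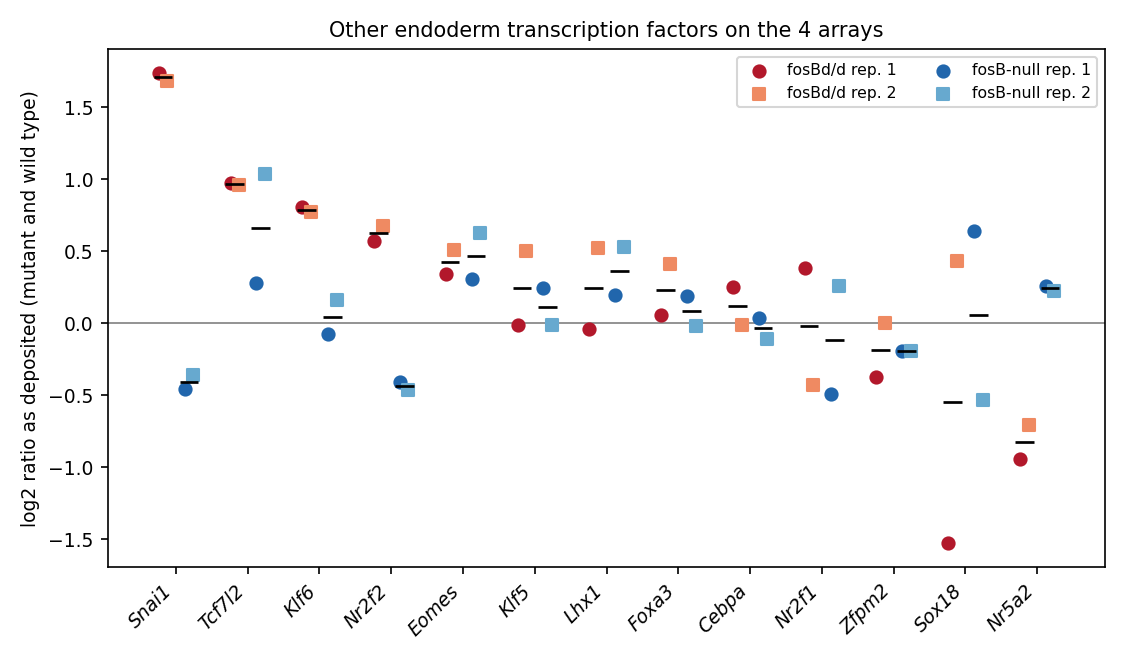
Log2 ratio as deposited (vertical axis) of the 13 other endoderm transcription factors on the 4 arrays, with black lines for the mean of 2 arrays, ordered by the fosBd/d mean. Snai1 stands apart at 1.74 and 1.68 in fosBd/d, and Nr5a2 lies at the negative end with -0.94 and -0.71.

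Paralogs of the 4 factors were spread around 0 in fosBd/d. Gata1 and Gata3, the other GATA genes on the array, had fosBd/d means of 0.33 and -0.52. The other 10 FOX genes ranged from -0.69 to 0.34 with a median of -0.01, and 0 of them were 2-fold on both arrays. The other 6 SOX genes ranged from -1.41 to 0.56, and Sox6, at the negative end, stood at -1.76 and -1.05. The other 21 nuclear receptors ranged from -1.07 to 0.91 with a median of -0.03, and Nr3c1, the glucocorticoid receptor, stood at 0.91 and 0.92, with a mean close to that of Hnf4a. These families were described by their ranges, and no difference from the 4 factors was tested.

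Genes of FGF and PDGF signalling, which takes part in primitive endoderm formation, and products of endoderm were measured in part. The FGF and PDGF list held ligands, receptors, kinases and outputs of the pathway and had 5 measured genes of 21 listed, with a fosBd/d median of 0.17. Pdgfra, a receptor that marks primitive endoderm, stood at 1.68 and 1.37, while Map2k1, Pdgfa and Dusp6 had means of 0.32, 0.17 and -0.10. Products of primitive and parietal endoderm had a median of 1.75 over 19 genes of 27 listed. On both fosBd/d arrays 16 were positive and 0 negative, beside 25.0% and 24.2% of all genes. The highest means among products of 1 sign on both arrays were those of F3, Thbd, Col4a2 and Col4a1. Lrp2, an endocytic receptor of visceral endoderm, stood at 1.67 and 1.90. In fosB-null, whose direction is not settled, the median of these products was -0.34 as deposited. On both fosB-null arrays 10 were negative and 4 positive, beside 21.9% and 19.5% of all genes. There F3 stood at -0.57 and -0.79, Thbd at -1.01 and -1.88, and Lrp2 at 0.33 and 0.62. Col4a2 stood there at 0.20 and -0.57 and Col4a1 at -0.16 and -0.51. This list was written with earlier results of these data known and is not independent evidence.

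The list of HNF4A and FOXA target products had a fosBd/d median of 0.25 over 27 genes of 48 listed. Of these, 11 were positive and 3 negative on both arrays, beside 25.0% and 24.2% of all genes. Aqp8 (2.85 and 1.89), Pth1r (2.34 and 1.89), Spink1 (1.38 and 1.88) and Ctsh (1.28 and 1.57) had the highest means of the list. In fosB-null as deposited, Spink1 stood at 1.52 and 1.10 and Ctsh at 1.72 and 1.29. Aqp8 stood there at 0.30 and 0.75 and Pth1r at -0.38 and 0.74. These 4 were put on the list as endoderm genes with their values known, and Pth1r is also on the list of primitive and parietal endoderm products. Without these 4 the median was 0.15 over 23 genes. Of those genes 7 were positive and 3 negative on both arrays, beside the same 25.0% and 24.2%. Ttr and Mttp, which make a thyroid hormone carrier and the lipid transfer protein of lipoprotein assembly, were singled out after their values were seen. Ttr stood at 1.01 and 1.59 in fosBd/d and 1.12 and 0.87 in fosB-null, and Mttp at 1.09 and 1.42 beside 0.74 and 0.64. On the other side, G6pc, the glucose-6-phosphatase of gluconeogenesis, stood at -0.64 and -1.92, and Ambp at 0.00 and -1.86. Afp, the fetal serum protein of visceral endoderm, was at 1.05 and -0.29, with opposite signs as for Sox17. Of the 45 genes on these product lists, 0 passed an adjusted p of 0.05 in limma in either mutant, while 26 had a probe with an unadjusted p under 0.05 in fosBd/d and 11 in fosB-null, against the same 18.4% and 6.66%.

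In bulk RNA, fewer or more cells of a type and a change of RNA per cell cannot be told apart. Markers of other cells were therefore set beside the 4 factors. Feeder fibroblast markers had a fosBd/d median of 0.07 over 11 genes of 18 listed. On both arrays 4 were positive and 3 negative, beside 25.0% and 24.2% of all genes. S100a4, Thy1, Col5a2 and Lum had means of 0.65, -0.53, -0.49 and -0.46. Trophoblast markers had a median of -0.23 over 7 genes of 12 listed, with 2 positive and 3 negative on both arrays. Plac1 was at 1.34, Tpbpa at -0.97, Gata3 at -0.52 and Phlda2 at -0.23. In fosB-null as deposited, Plac1 stood at 1.16 and 0.95. Mesoderm markers had a fosBd/d median of -0.28 over 4 genes of 12 listed, with 1 positive and 2 negative on both arrays. Foxc1 was at -0.69, Mesp1 at -0.38, Kdr at -0.19 and Foxc2 at 0.29. Genes associated with pluripotency had a fosBd/d median of -0.08 over 7 genes of 22 listed, with 2 positive and 3 negative on both arrays. Alpl was at -0.79, Zfp42 at -0.54, Utf1 at 0.45 and Lin28a at 0.39. In fosB-null as deposited, 0 of the 7 were positive and 5 negative on both arrays, beside 19.5% and 21.9% of all genes. Pou5f1, Nanog and Sox2 were not among the measured genes of this list, so its median is a partial reading. The part of other cells in the ratios of the 4 factors was not tested.

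**Figure D5:**
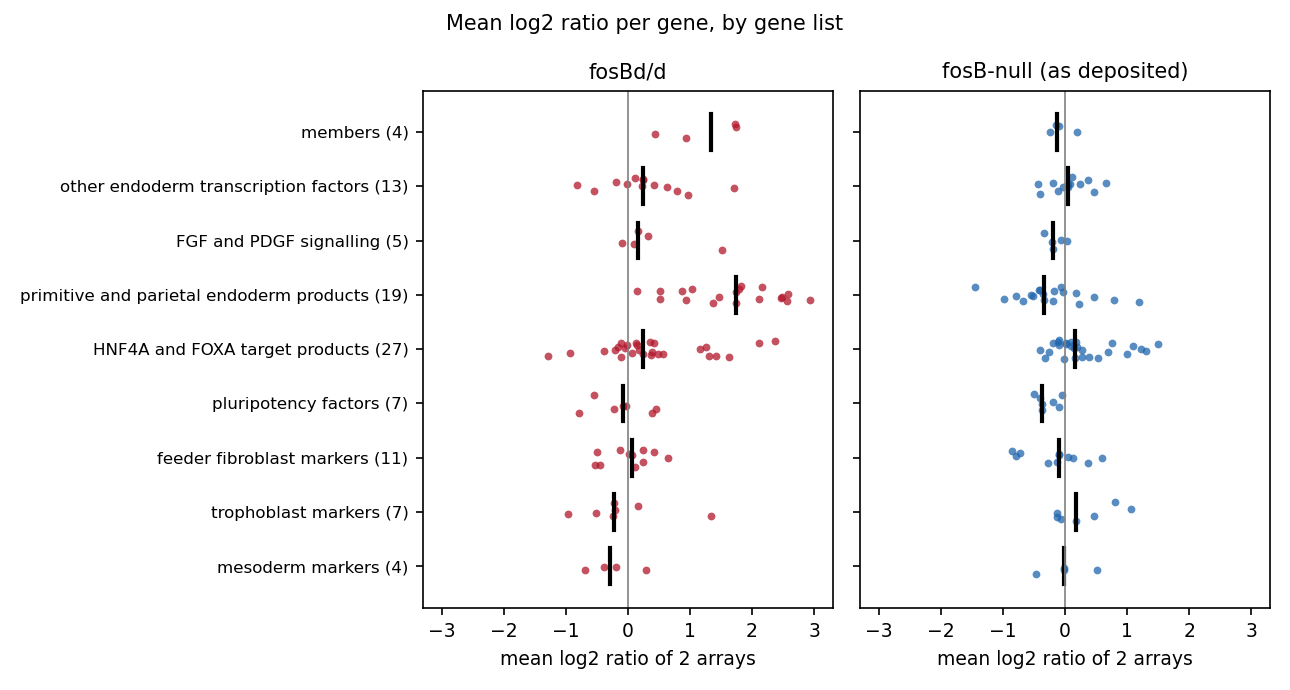
Mean log2 ratio of 2 arrays per gene (horizontal axis) for each gene list, in fosBd/d on the left and in fosB-null as deposited on the right, with black bars for the median and the number of measured genes in brackets. The median in fosBd/d is 1.33 for the 4 factors and 1.75 for the endoderm products, and between -0.28 and 0.25 for the other lists.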

How the data were processed

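The authors deposited 1 log10 ratio of the 2 channels per probe and array, made with Agilent Feature Extraction per the submitters' processing notes. Its version, background correction, dye normalization and filters are, in the sources used here, not given. The log base is that software's definition, so every fold change rests on it. Values were multiplied by the log2 of 10. Signal intensities were not analysed here, and the number of arrays limits the precision. In fosBd/d replicate 1 and fosB-null replicate 2 zeros carry a minus sign, the mark that multiplying by -1 leaves.

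Names of probes came from GEO's platform annotation, with symbols updated through RefSeq for 6496 of the 6566 probes with 1 gene. The main test was limma 3.58.1 (R 4.3.3) on 9480 probes and 4 arrays, with 1 term for each mutant and a dye term signed by the apparent scanner direction, two-sided, with Benjamini-Hochberg adjustment at 0.05. It left 1 residual degree of freedom, with a fitted prior of 1.33. The step was tested on simulated data with the same noise variance for all probes and a dye effect that follows the model. That setting is simpler than these data and does not show how the fit treats noise that differs between probes. An exact sign-flip test on 2 arrays cannot go below a two-sided p of 0.5 and was not used. Replicate numbers follow accession order. Arrays of the same number have the mutant in the same dye, and no source says that they share cultures.

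Probes of several genes were averaged per gene for lists. The text names the 4 factors, every measured gene of the other endoderm factors, up to 4 genes per further list by the size of the fosBd/d mean among those of 1 sign on both arrays, the 3 nearest profiles of each factor, and the paralogs. Mesp1, Lrp2, Afp, Ttr, Mttp, G6pc and Ambp were named beyond that rule after their values were seen. The members and lists were chosen with earlier results of these data known. Alternatives were the dye term and its sign, array scale and centring, the log base, zeros, averaging per gene, robust moderation, separate fits, each array left out, the fosB-null sign and a replicate block.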

Additional observations from a re-analysis of the deposited data

Results flagged for a closer look

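Among the 4 factors and the 13 other endoderm factors, 4 genes had both fosBd/d arrays on one side of 0 and both fosB-null arrays on the other, as deposited. This pattern was found for 12.8% of all probes. Hnf4a differed by 1.09 between the mutants, with an adjusted p of 0.369 for the difference in limma, and by 0.48 to 1.70 when single arrays were left out, 0.48 being the value without fosBd/d replicate 1. Snai1 differed by 2.12, Nr2f2 by 1.06 and Nr5a2 by -1.07, each with an adjusted p of 0.357 in limma. With the fosB-null sign turned the opposition is gone for all 4 genes, and the adjusted p of the turned difference was 0.532 for Hnf4a, 0.524 for Snai1 and Nr5a2 and 0.584 for Nr2f2.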

How the results depend on the processing

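Of 160 values of the 4 factors under alternative settings, 156 kept their sign and their side of an adjusted p of 0.05 in limma, and 4 changed sign, each when 1 array was left out. Changes of the dye term, zeros, averaging per gene, robust moderation and separate fits could not move these estimates. In the main limma fit no probe had an adjusted p below 0.297 in fosBd/d. The count of 156 was thus largely set in advance and is no measure of robustness. The adjusted p ranged from 0.195 to 1.00. Without fosBd/d replicate 1, Sox17 was at -1.95 in fosBd/d and at -1.71 against fosB-null, and without single arrays these values ranged from -1.95 to 2.83 and from -1.71 to 3.07. Without fosB-null replicate 2, Gata6 was at -0.27 and Foxa2 at 0.17 in fosB-null, within ranges of -0.27 to 0.64 and -0.37 to 0.17. Hnf4a in fosBd/d ranged from 0.33 to 1.55 without single arrays, Gata6 from 1.55 to 1.95 and Foxa2 from 1.65 to 1.81. Fits without an array had no dye term and assume that a lone array varies like the other mutant's. The number of factors under an unadjusted p of 0.05 in fosBd/d was 2 or 3 in every setting, but not always with Gata6. Its unadjusted p in limma was 0.0783 without fosBd/d replicate 1, where Foxa2 and Sox17 were the 2 under 0.05, and 0.0511 without replicate 2. The Hnf4a difference between mutants ranged from 0.48 to 1.70 without single arrays. With a replicate block, which pairs the arrays that have the mutant in the same dye and equals a dye term signed by the dye labels alone, the Foxa2 and Gata6 differences between mutants stayed at 1.83 and 1.56 with adjusted p-values of 1.00, and 1 factor instead of 2 was under an unadjusted 0.05. The cause of these changes was not tested. Read as natural logs, every value would be smaller by the same factor.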

Other observations

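A few genes near the 4 factors in function had ratios that were singled out after their values were seen. The nuclear receptor Ppara, a fatty acid sensor, had opposite signs on the fosBd/d arrays, -2.26 and 2.41, the reverse of the order seen for Sox17. The keratin Krt19 stood at 1.95 and -0.90 there, while Krt8, a keratin of simple epithelia and endoderm, stood at 1.65 and 1.82. The probes of Sox18, the paralog of Sox17 that was measured, gave -2.47 and 0.80 for one and -0.58 and 0.06 for the other on the fosBd/d arrays. The GATA cofactor Zfpm2 had a deposited value of exactly 0 on the second fosBd/d array.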
